A study of Drosophila melanogaster with 3 samples.

Results

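The regions described here are intronic binding sites of the fly transcription factor Atf3 that lie close to, but outside, a promoter. They were chosen by position alone. A peak was kept when its summit lay inside an annotated gene but in no exon, with the nearest transcription start site (TSS) of any gene 501 to 2000 bp away. Of the 2896 peaks that met the authors' limit on the irreproducible discovery rate (IDR, which scores whether replicates rank a peak alike), 392 met the rule and are called members below. They made up 13.5% of the list (95% Wilson interval 12.3% to 14.8%). The 2896 peaks were also the calls of highest signal in the list from the replicates pooled. A member therefore need not rank alike in every replicate. The peaks came from chromatin immunoprecipitation with sequencing of whole Drosophila melanogaster embryos aged 0 to 24 hours, with males and females pooled. The embryos were of the transgenic strain A3-3-GFP, which stably expresses Atf3 with GFP fused to its C-terminus, and the immunoprecipitation used an antibody against the GFP tag. There were 3 biological replicates of this 1 group and no other genotype or treatment, so no conditions are compared. The lists were of whole embryos, so strong binding in few cells and weak binding in many cannot be told apart, and binding is that of the tagged protein.

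Atf3 belongs to the ATF/CREB family of basic leucine zipper (bZIP) proteins, which bind DNA as dimers, on their own or with Fos, Jun or related partners. The palindrome TGACGTCA, the cyclic AMP response element (CRE), is the classical site of this family, and its shorter form TGACGT is called the CRE core below. In flies Atf3 has been tied to epithelial integrity, to lipid metabolism and to immune and stress responses. First introns of fly genes commonly hold enhancers, so a site some distance inside a gene can act on the nearest promoter, on a distant one or on none.

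The windows of the 6 strongest members give the letters under the highest signal in the class. Each runs 60 bp to either side of the summit, read 5′ to 3′ on the plus strand of the release 6 (dm6) genome from RefSeq, and capitals mark matches to any of the 15 motifs searched. None of these 6 windows holds a CRE or a CRE core. The marked matches are TATA-like TATAAA in the windows near cbt and CG32772 and the C/EBP-type TTGCNNAA in the one at CG11050, and 3 windows have no match.
cbt (chr2L:481030-481150): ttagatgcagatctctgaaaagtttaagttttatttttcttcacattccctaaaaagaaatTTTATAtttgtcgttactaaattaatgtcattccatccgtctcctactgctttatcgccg
ph-p (chrX:2137296-2137416): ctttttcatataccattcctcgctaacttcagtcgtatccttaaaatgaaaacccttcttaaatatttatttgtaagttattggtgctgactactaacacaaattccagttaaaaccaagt
CG11050 (chr2L:6612665-6612785): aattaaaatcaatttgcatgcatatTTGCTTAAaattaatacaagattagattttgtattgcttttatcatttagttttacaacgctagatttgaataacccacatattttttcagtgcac
Lk6 (chr3R:11760998-11761118): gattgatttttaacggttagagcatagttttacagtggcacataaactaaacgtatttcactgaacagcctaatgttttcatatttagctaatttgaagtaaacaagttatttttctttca
CG32772 (chrX:4910321-4910441): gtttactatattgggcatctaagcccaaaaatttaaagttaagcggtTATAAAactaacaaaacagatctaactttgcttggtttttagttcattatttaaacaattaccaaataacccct
CG9663 (chr2L:3302127-3302247): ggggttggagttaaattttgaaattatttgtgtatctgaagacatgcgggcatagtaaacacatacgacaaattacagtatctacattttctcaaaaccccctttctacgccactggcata

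In contrast, 10 members had the full CRE palindrome within 100 bp of the summit. For the 8 that lie on arms whose sequence is printed here, 48 bp are shown on the plus strand of the same genome, with the palindrome in capitals, because members with the classical site of the family are few. The sites at betaTub56D and LamC are not shown, for their arm and not for their signal.
Dhc64C (chr3L:4824789-4824836): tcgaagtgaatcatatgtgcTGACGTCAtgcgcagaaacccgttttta
Rtnl1 (chr2L:5001556-5001603): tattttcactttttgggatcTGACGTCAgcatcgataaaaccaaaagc
klar (chr3L:441881-441928): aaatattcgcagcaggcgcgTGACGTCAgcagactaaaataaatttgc
Csk (chr3R:11649036-11649083): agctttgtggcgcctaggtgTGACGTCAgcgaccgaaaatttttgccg
CG12065 (chrX:8575008-8575055): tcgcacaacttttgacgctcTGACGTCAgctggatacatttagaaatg
Unc-115a (chr3R:9704538-9704585): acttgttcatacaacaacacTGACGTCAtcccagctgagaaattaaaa
CG6051 (chr3R:27150157-27150204): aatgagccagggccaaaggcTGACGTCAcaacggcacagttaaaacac
Zasp66 (chr3L:8628264-8628311): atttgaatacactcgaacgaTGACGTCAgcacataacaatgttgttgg

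The CRE member in the first intron of Csk, a kinase that restrains Src, also holds the repeat GAGAGA, the site of the GAGA factor, which was more common among members than at promoter peaks (capitals in the window below, where the CRE is left in lower case). Another window, in an intron of Nmdar1 near the TSS of Itpr, the inositol trisphosphate receptor, has the repeat on both strands and also a CRE core, likewise left in lower case. The last is from the only member with the DNA replication-related element TATCGATA (DRE, capitals), at Stt3A, a subunit of oligosaccharyltransferase. Itpr and Stt3A fall outside the rule for named genes and were chosen after their values were seen.
Csk (chr3R:11648976-11649096): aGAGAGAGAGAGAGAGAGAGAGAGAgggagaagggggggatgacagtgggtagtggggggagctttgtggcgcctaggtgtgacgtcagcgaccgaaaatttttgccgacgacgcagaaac
Itpr (chr3R:5518724-5518844): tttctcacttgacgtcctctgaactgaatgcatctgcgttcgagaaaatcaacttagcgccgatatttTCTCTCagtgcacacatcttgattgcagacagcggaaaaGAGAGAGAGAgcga
Stt3A (chrX:21053215-21053335): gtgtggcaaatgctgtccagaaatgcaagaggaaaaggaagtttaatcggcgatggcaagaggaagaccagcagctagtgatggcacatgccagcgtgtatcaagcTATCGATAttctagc

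Signal is the authors' own value for each peak in the list from the pooled replicates and is used only to rank peaks within it. Since signals of separate lists are not on a shown common scale, the value given for each replicate is the rank of the overlapping call in that replicate's list of 30000 calls. The strongest member had a signal of 1610 and lay in the first intron of ush, which encodes a cofactor of GATA factors. The nearest TSS was not that of ush but that of cbt, a zinc finger transcription factor, 1402 bp away, with the summit on its upstream side. It ranked 1, 2 and 2 in replicates 1, 2 and 3, and its rank in the whole IDR list was 2. The next member lay 501 bp from a TSS of ph-p, a Polycomb repressive complex subunit, with a signal of 1280 and ranks of 6, 6 and 5. A member in a 140 bp intron of CG11050, 1038 bp downstream of the TSS, had a signal of 1069 and ranks of 9, 12 and 11. At Lk6, a protein kinase of the MNK family that acts on the translation factor eIF4E, the signal was 1009 and the ranks were 11, 17 and 13. These 4 members were among the 15 strongest of all IDR peaks, and 17 were among the first 100.

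**Figure D1:**
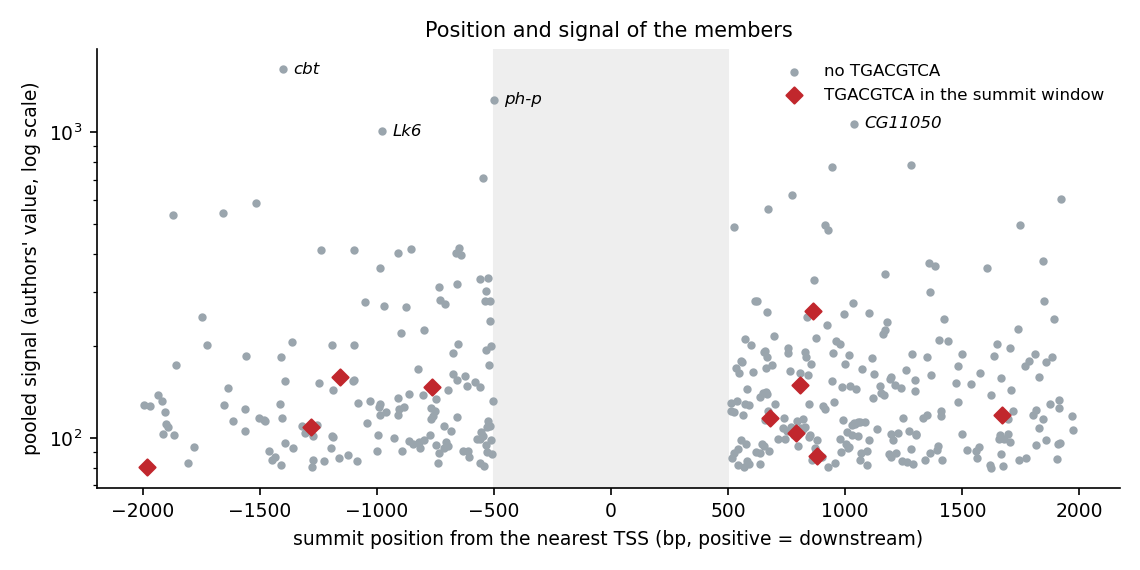
Pooled signal (authors' value, log scale) of the 392 members against the position of the summit from the nearest TSS in bp, negative upstream and positive downstream in the direction of transcription. Grey points have no TGACGTCA within 100 bp of the summit and red diamonds have one; the shaded band is the promoter zone that the rule left out. The 4 strongest members are named, and the 10 red diamonds lie at signals from 80.2 to 260.

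The following members fell off gradually in signal. CG32772 had 780 with ranks of 27, 25 and 21, and CG9663 had 772 with ranks of 28, 26 and 25. HmgZ, an HMG-box chromatin protein, had 709 with ranks of 50, 20 and 30. Adf1, a sequence-specific transcription factor first found at the Adh promoter, had 626 with ranks of 49, 30 and 55. These ranks differ little between replicates. At cno, whose product (canoe) links adherens junctions to actin, replicate 2 stood apart: the signal was 604 and the ranks were 20, 304 and 43. A summit in an intron of Trl, the gene of the GAGA factor, was nearest to the TSS of CG42507 and had 586 with ranks of 52, 49 and 51. LPCAT, a lysophospholipid acyltransferase, had 564 with ranks of 69, 41 and 69. NFAT, a transcription factor of the Rel-homology family, had 546 with ranks of 43, 83 and 63. The last of the 15 strongest members were CG9837 (536, ranks 44, 98 and 72), CG3726 (499, mean rank 76.7 ± 21.8, SD, n = 3) and mub, a KH-domain RNA-binding protein (496, ranks 127, 60 and 56). All 15 ranked 304 or better in each replicate. The whole class ran from 79.8 to 1610 with a median of 124.3, and its quartiles were 98.6 and 184.

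**Figure D2:**
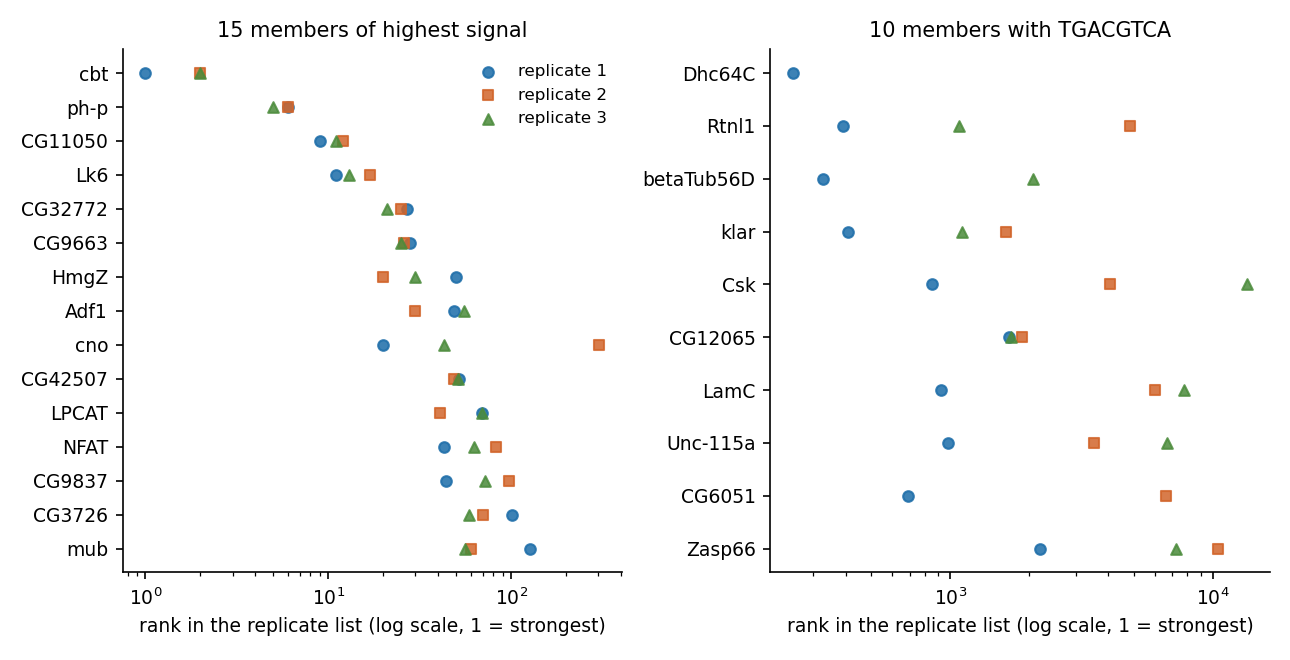
Rank of each named member in the lists of replicates 1 (blue circles), 2 (orange squares) and 3 (green triangles) on a log scale, with 1 the strongest call; a missing symbol means that no call overlapped. On the left the 15 strongest members lie close together in all replicates except cno in replicate 2 (rank 304); on the right each of the 10 members with TGACGTCA has its best rank in replicate 1.

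Nearly every member was found again in each replicate. With an overlap of at least 50% of the shorter interval, 99.7%, 96.7% and 98.2% of members had a call in replicates 1, 2 and 3 (98.2% ± 1.53, SD, n = 3), and 373 of 392 (95.2%) had one in all 3. The 19 others lacked a call in replicate 1 once, in replicate 2 in 13 cases and in replicate 3 in 7. No missing member had a summit of that replicate within 200 bp, but some were just beyond. The nearest lay 213 and 221 bp away at Dhc64C (replicates 2 and 3) and 224 bp away at shn (replicate 3). The furthest nearest summit was 2306 bp away. The IDR list was made from these same lists, so this overlap describes the list and is no separate evidence. The 2896 calls of highest signal in a replicate are called its top calls. By that stricter measure 83.2%, 75.3% and 79.3% of members were found, and 210 (53.6%) were top calls in all 3 replicates. The median signal of these 210 was 172, against 92.5 for the 36 members that were top calls in replicate 1 alone. Across members, Spearman's rho of the ranks was 0.508 for replicates 1 and 2 (378 members), 0.518 for replicates 1 and 3 (384) and 0.714 for replicates 2 and 3 (374). The same pair stood closest among far intronic peaks and promoter peaks (0.616 and 0.734). These coefficients are descriptions, since members share libraries and some share a locus.

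Some members are neighbours within 1 locus. The 392 members fell into 380 groups of overlapping IDR peaks, and 29 members overlapped another IDR peak. In 12 groups both peaks were members, with summits 199 to 220 bp apart. Such pairs were present at CG9663, at Adf1 and at Dhc64C, the cytoplasmic dynein heavy chain. In 18 cases, counting each member of such a pair, a member was matched in some replicate to a call that another member matched too. The rank there is shared. At Adf1 the second summit (signal 131) therefore carries the ranks of the first, 49, 30 and 55. With 1 peak kept per group, 377 members remained and were 13.4% of that list.

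Members were present in every replicate at a like share. They were 14.6%, 12.9% and 13.6% of the top calls of replicates 1, 2 and 3. In the pooled list of 27754 calls, 2808 met the same rule of position, and 392 of them (14.0%, Wilson interval 12.7% to 15.3%) were IDR peaks, against 10.4% of all pooled calls. The share was 20.8% for promoter calls, within 500 bp of a TSS, and 8.19% for intronic calls more than 2000 bp from any TSS, called far intronic below. Members thus lay between those classes. Down the pooled ranking the share of the class was 13.5% in the IDR list, 14.2% in the next 2896 calls, 11.4% in the next and 9.67% in the fourth such set.

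The density of members decreased with distance from the TSS although the rule fixed the outer limits alone. Intronic sequence that met the rule covered 11.4 Mb, or 8.50% of the arms, and held 34.5 members per Mb. Promoter sequence held 86.8 and far intronic sequence 13.0 IDR peaks per Mb. From 501 to 750 bp there were 47.7 members per Mb (95% Poisson interval 39.2 to 57.6). Between 751 and 1000 bp there were 39.5, then 34.9 and 29.9 in the next 250 bp steps. From 1501 to 1750 bp the density was 23.3 (16.5 to 31.8) and from 1751 to 2000 bp it was 25.02. The intervals of the first and the outermost steps do not overlap. The median signal was nearly level over these steps, between 116 and 130. At the limits of the rule, the members at 501 bp and 506 bp were ph-p (1280) and lncRNA:CR43716 (133), while aru (169) and CG5065 (98.0) at 500 bp fell outside. At the far limit, Zasp66 at 1983 bp (80.2) and CG43658 at 1997 bp (128) were members, and CG3764 at 2001 bp (165) and CG34325 at 2004 bp (98.2) were not.

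**Figure D3:**
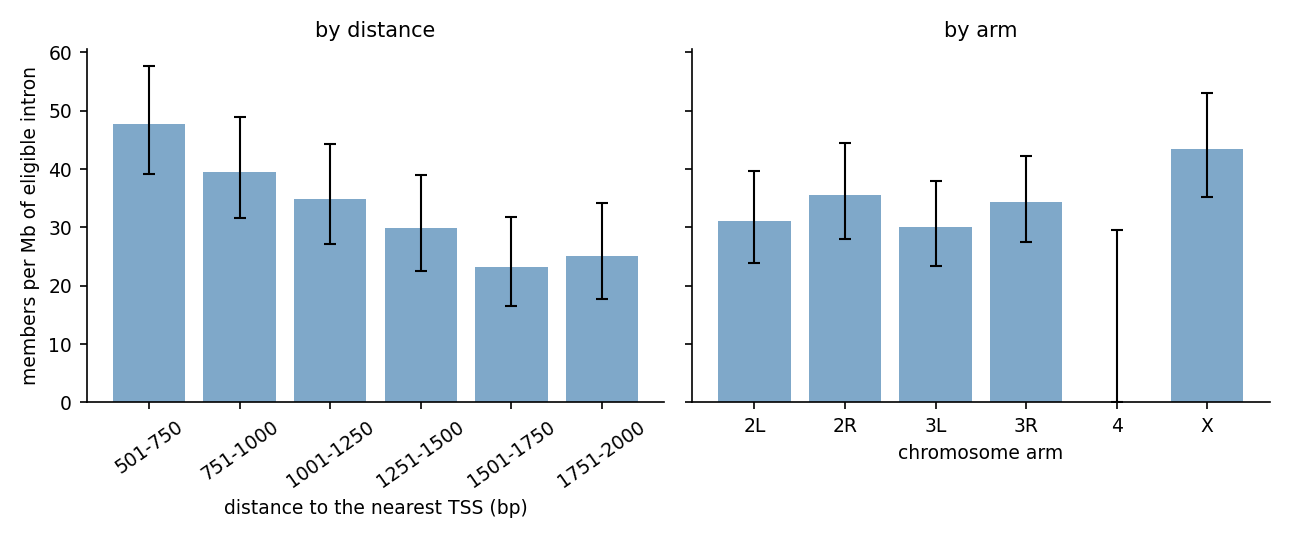
Members per Mb of intronic sequence that meets the rule, by distance of that sequence from the nearest TSS in bp (left) and by chromosome arm (right); bars are counts per Mb and whiskers are 95% Poisson intervals, which cover counting error only. The bars fall from 47.7 per Mb at 501 to 750 bp to 25.02 at 1751 to 2000 bp, and X is the highest arm at 43.4.

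On X there were 95 members at 43.4 per Mb (Poisson interval 35.2 to 53.1). The large autosome arms had 31.1 (2L), 35.5 (2R), 30.05 (3L) and 34.3 (3R), with intervals that overlap that of X. The fourth chromosome had 0 members in 0.125 Mb, where an upper limit of 29.6 per Mb applies. X held 24.2% of members and 19.2% of the sequence that met the rule. It held 25.3% of far intronic peaks and 8019576 of 41445805 bp of far intronic sequence. Of promoter peaks it held 15.3%, with 2915529 of 17939358 bp of promoter sequence. The sequence on X thus differs between the classes too.

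Members were mostly in first introns and mostly near a start of a gene with an intron over the summit. Of the 392 summits, 323 (82.4%) lay in the first intron of their host gene. Counting intron 1 of any transcript, the share was 83.4% (Wilson interval 79.4% to 86.8%), against 64.6% of the intronic sequence that met the rule. Downstream of the nearest TSS lay 238 summits (60.7%, Wilson interval 55.8% to 65.4%), against 64.6% of that sequence, a value inside the interval. The nearest TSS belonged to a gene with an intron over the summit, not always the named host, in 335 cases. Of these, 225 had the summit downstream and 110 upstream, in an intron of a longer transcript. In 57 cases the nearest TSS belonged to a gene with no intron there, as at cbt, and 44 of these summits were upstream of that TSS. A non-coding gene had the nearest TSS for 35 members, and 41 summits lay in introns of more than 1 gene. The introns had a median length of 5602 bp, from 127 to 73902 bp.

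The members lay in 336 host genes, which were long. Protein-coding hosts had a median length of 16317 bp, against 2166 bp for all 13945 protein-coding genes. Counting all protein-coding genes with a member summit inside the gene, there were 354 (2.54%), and 313 of these were in the top quartile of gene length. That count was 229 without replicate 3, 236 without replicate 1 and 248 without replicate 2, because requiring top calls in both other replicates left 239 to 261 members. A promoter IDR peak was also present at 115 of the 336 hosts (34.2%), against 30.4% of hosts of far intronic peaks and 14.2% of all protein-coding genes. Among protein-coding genes of 4999 bp or more, the share with a promoter IDR peak was 19.2%. Gene length differs between these sets and its part in the difference was not tested.

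A single member was present in 291 hosts and a pair in 35. CG1677 had 4 members, spread over 44291 bp in an intron of 73902 bp, with signals from 102 to 278. Their nearest TSSs were those of CBP, brk, unc-119 and CG42780. Of these, brk is a repressor of Dpp target genes, and its member had a signal of 225 with ranks of 940, 356 and 302. There were 9 hosts with 3 members. HmgZ had signals from 81.2 to 709 over 2810 bp. Trl had 586, 115 and 107, and NFAT had 546, 270 and 125 over 14546 bp. Tpr2, a co-chaperone of heat shock proteins, had 3 members of nearly equal signal, from 151 to 156, which ranked between 616 and 1626 in the replicates. CHES-1-like, a forkhead transcription factor, had signals from 82.7 to 202. The remaining hosts with 3 members were CG43658, Svil (a supervillin-type actin regulator), larp (a La-related RNA-binding protein) and shn (a zinc finger cofactor of Smad proteins), with signals from 83.0 to 128. Of these 10 hosts, 5 also had a promoter IDR peak.

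Ranks of members were compared with those of other classes in each replicate. The median rank of members was 1358, 1586 and 1376 in replicates 1, 2 and 3, and that of far intronic peaks was 1662, 1888 and 1629. Members were ahead in 3 of 3 replicates, with a mean difference in percentile rank (members minus far intronic peaks) of -0.955 ± 0.0968 points (SD, n = 3; exact two-sided sign-flip permutation test, p = 0.25, the smallest that 3 replicates allow). Among the 1448 IDR peaks of highest signal the difference was -0.416 points. Promoter peaks had median ranks of 1433, 1261 and 1374. There the difference changed sign between replicates, with members ahead in replicate 1 and behind in replicates 2 and 3, and averaged 0.279 ± 0.708 points (exact sign-flip permutation test, p = 0.75). Without replicate 2 it was -0.123 points. All classes are cut at the same pooled signal, and a median over peaks that passed it describes only those peaks.

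Members held the DRE less often than promoter peaks, and so did far intronic peaks. Windows reaching 100 bp to either side of the summit were searched for 15 motifs on both strands, and the shares were compared with 537 far intronic and 1557 promoter IDR peaks by the two-sided Fisher exact test, adjusted over 30 tests by the Benjamini-Hochberg method. Against promoter peaks 4 motifs differed. The DRE, the site of the promoter factor Dref, was in 1 member (0.255%, Wilson interval 0.0450% to 1.43%) and in 122 promoter peaks (7.84%, Fisher exact test, adjusted p = 6.6e-10). GGTCACAC, the site of M1BP, another core promoter factor, was in 0.510% of members and 4.50% of promoter peaks (Fisher exact test, adjusted p = 0.000303). Far intronic peaks were also low, with 0.372% for the DRE and 0.186% for GGTCACAC. In windows 600 bp from the member summits the shares were 0.510% and 1.02%. The classes were set by distance from a TSS, so fewer sites of promoter factors in members can be foreseen from the rule and are no separate evidence. GAGAGA was in 65 members (16.6%, Wilson interval 13.2% to 20.6%) and 8.99% of promoter peaks, an odds ratio of 2.01 (Fisher exact test, adjusted p = 0.000303). TTGCNNAA, the C/EBP-type site, was in 11.99% of members and 18.3% of promoter peaks, an odds ratio of 0.608 (Fisher exact test, adjusted p = 0.0195). TATAAA, the TATA-type box, was in 27.8% and 29.99% (Fisher exact test, adjusted p = 0.743).

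Each peak set without a replicate kept the IDR peaks that were top calls in both other replicates. The pooled list behind it still held all 3 replicates. A loss there thus does not show that a difference rests on the replicate left out. Of the 4 differences from promoter peaks, only that of the DRE passed the threshold in each such set and in every other alternative run. That of M1BP was lost without each of the replicates (Fisher exact test, adjusted p = 0.239 without replicate 1, 0.215 without replicate 2 and 0.505 without replicate 3). That of GAGAGA was lost without replicate 2 (0.202) and without replicate 3 (0.0864). That of TTGCNNAA was lost without replicate 3 (0.184) and in a window of 50 bp to either side (0.286). Among the 1448 IDR peaks of highest signal those of M1BP (0.781) and GAGAGA (0.335) were lost. The sets without a replicate are smaller, with 239 to 261 members, and each difference kept its direction. These are also adjusted p-values of the Fisher exact test. In the top calls of the class, GAGAGA was present in 15.8%, 13.6% and 12.7% in replicates 1, 2 and 3 (14.0% ± 1.62, SD, n = 3). It was present in 9.65% ± 1.69 at promoters and 12.2% ± 1.01 of far intronic top calls. The DRE was at 0.163% ± 0.142 in the class, 0.252% ± 0.114 in far intronic top calls and 6.93% ± 0.329 at promoters.

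Against far intronic peaks 0 of 15 motifs passed, and 2 had an unadjusted p under 0.05. The CRE core was in 32 members (8.16%, Wilson interval 5.84% to 11.3%) and in 4.28% of far intronic peaks (adjusted p = 0.0979, Fisher exact test). In a window of 50 bp to either side that difference passed (Fisher exact test, adjusted p = 0.0283). The difference was 3.88 percentage points, and it was 1.44 without replicate 1, 0.905 without replicate 2 and 1.25 without replicate 3 (Fisher exact test, adjusted p = 0.766, 1 and 1). Among the 1448 IDR peaks of highest signal it was 1.83 (Fisher exact test, adjusted p = 0.907). GAGAGA was in 11.9% of far intronic peaks (Fisher exact test, adjusted p = 0.221). Against windows of the same length centred 600 bp from the same summits, 0 of 15 motifs passed the two-sided exact McNemar test, and 2 had an unadjusted p under 0.05. These were TTGCNNAA, in 11.99% of summits and 19.6% of flanks (exact McNemar test, adjusted p = 0.0528), and TATAAA, in 27.8% and 20.4% (adjusted p = 0.155). The flanks were not held to introns and can fall on exons or promoters, so they are no matched intronic background. The median GC content was 36.3% at summits and 40.8% in the flanks, and its part in these shares was not tested. The CRE palindrome was in 10 summit windows (2.55%, Wilson interval 1.39% to 4.63%) and 4 flanks (1.02%, exact McNemar test, adjusted p = 0.539), against 1.49% of far intronic and 1.54% of promoter peaks. It was in 1.24% of the 2416 pooled calls of the class outside the IDR list. The control CTGATCAG, which has the letters of the palindrome in another order, was in 0 members, which with 392 windows allows up to 0.970% (upper Wilson bound).

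**Figure D4:**
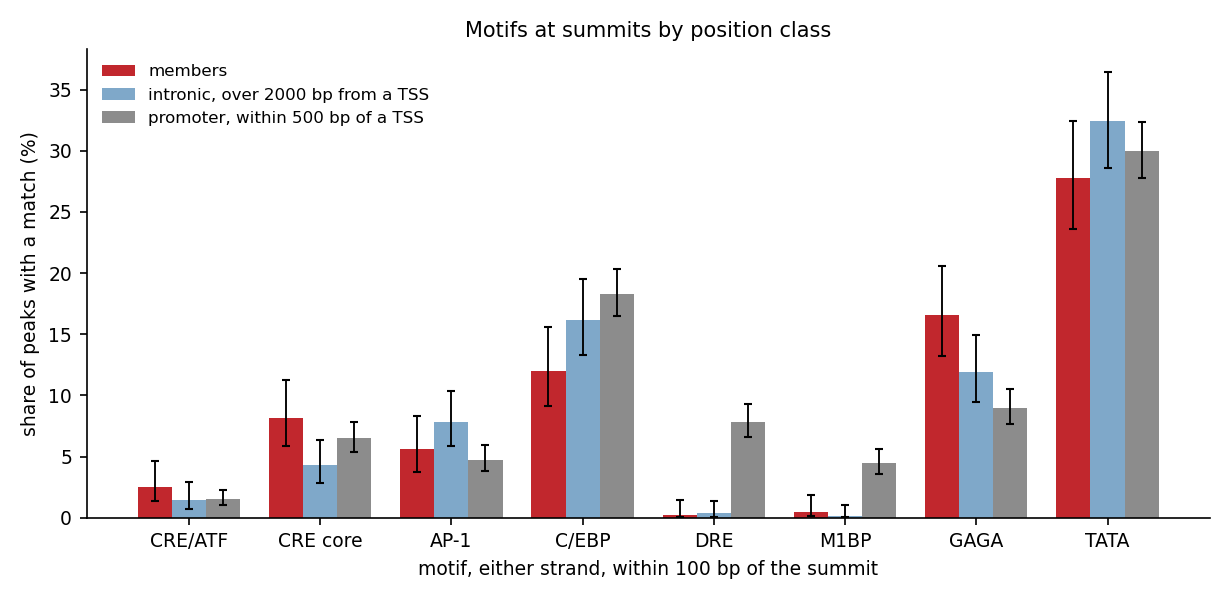
Share of peaks (%) with a match to each motif on either strand within 100 bp of the summit, for members (red), far intronic peaks (blue) and promoter peaks (grey); bars are shares and whiskers 95% Wilson intervals over peaks. The DRE and M1BP bars are near 0 for members and far intronic peaks and at 7.84% and 4.50% for promoters. The GAGA bar of members (16.6%) is the highest of the 3 classes.

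The 10 members with the CRE palindrome were of middling signal and ranked best in replicate 1 without exception. Of the palindromes, 8 lay within 50 bp of the summit, with a median offset of 36 bp. The strongest was at Dhc64C (signal 260), which ranked 251 in replicate 1 and had no call that met the 50% overlap limit in replicates 2 and 3. A second Dhc64C member beside it, 199 bp away and without the palindrome, ranked 348, 442 and 337. The calls ranked 442 and 337 were also those nearest to the first member, with summits 213 and 221 bp away. Rtnl1, which shapes the endoplasmic reticulum, had 159 with ranks of 390, 4828 and 1079. betaTub56D, the main beta-tubulin, had 149 with ranks of 327 and 2069 in replicates 1 and 3 and no call in replicate 2. klar, which regulates organelle transport along microtubules, had 147 with ranks of 406, 1632 and 1107. The CRE member at Csk had 119 with ranks of 850, 4067 and 13494. CG12065 (116) was the most even, with ranks of 1667, 1876 and 1699. The next were a summit in a ttv intron near LamC, the A-type lamin (109; 919, 6040 and 7761), and Unc-115a, an actin-binding protein (104; 982, 3530 and 6703). CG6051 (87.6) ranked 689 and 6626 in replicates 1 and 2 and had no call in replicate 3. Zasp66, a muscle Z-disc protein (80.2), ranked 2188, 10454 and 7239. CG6051 falls outside the rule for named genes and was added after its values were seen.

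All 10 were top calls in replicate 1, while 2 were in replicate 2 and 4 in replicate 3. Their median ranks were 770, 5434 and 6971, against 1382, 1532 and 1352 for the 382 other members. Of those others, 137 (35.9%) ranked best in replicate 1. Among the 36 members that were top calls in replicate 1 alone, 6 had the palindrome (16.7%), and among the 210 that were top calls in all 3 replicates, 2 had it (0.952%). The same lean was seen without reference to the IDR list. In the top calls of the class, the palindrome was in 3.31% (Wilson interval 1.98% to 5.48%) in replicate 1, 0.80% (0.272% to 2.33%) in replicate 2 and 1.27% (0.543% to 2.94%) in replicate 3. The CRE core was in 10.2%, 5.07% and 5.84%. Replicate 1 was also the highest for the other classes. The palindrome was in 3.26%, 0.791% and 0.697% of far intronic top calls of replicates 1, 2 and 3, and in 2.11%, 0.631% and 1.13% of promoter top calls. The CRE core was in 9.00%, 2.77% and 2.61% of the first and 8.88%, 5.04% and 5.64% of the second. The CRE share thus moved with 1 library in all 3 classes, and what sets that library apart was not tested.

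**Figure D5:**
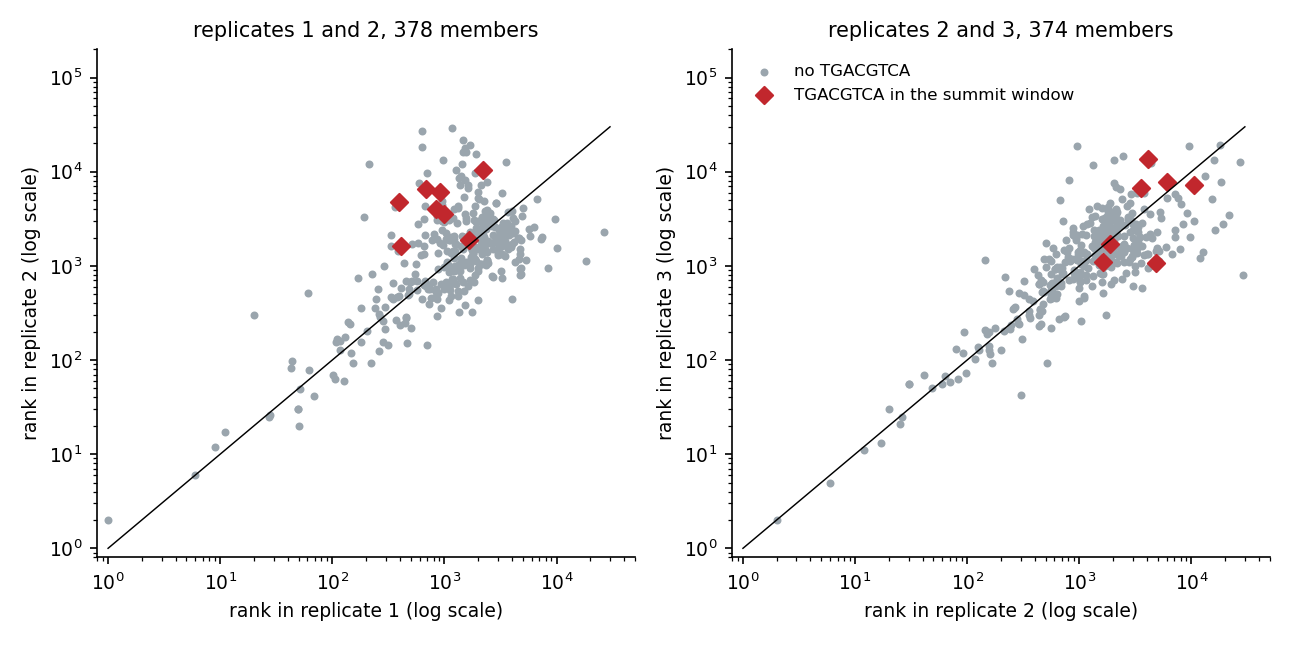
Rank of each member in 2 replicate lists on log scales, replicates 1 and 2 on the left and replicates 2 and 3 on the right; grey points have no TGACGTCA at the summit, red diamonds have one, and the line marks equal ranks. Every red diamond on the left lies above the line, that is, ranks better in replicate 1, while on the right they lie on both sides.

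Genes of signalling and transcription were counted by lists of known members. Over all 26 lists, 46 of 428 genes (10.7%) held a member summit, against 2.54% of protein-coding genes. The lists were chosen with earlier results of these data known, so this share is a description and no separate evidence. Listed genes were long, with a median of 7711 bp, and among all protein-coding genes of 4999 bp or more the share was 8.98%. In EGFR and Ras signalling 7 of 20 genes held a member. They include Lk6, edl, an antagonist of the repressor Yan (signal 280, ranks 450, 284 and 247), and drk, the Grb2 adaptor (268, ranks 372, 268 and 364). In the ecdysone response 5 of 18 genes did, among them ImpL2, a secreted insulin-binding protein (413, ranks 109, 157 and 128), EcR, the ecdysone receptor (210, ranks 713, 614 and 461), and br, a zinc finger factor of metamorphosis (162, ranks 1500, 538 and 1193). The nearest TSS was that of another gene in these 3 cases. InR, the insulin receptor, was the 1 of 18 genes in the insulin and Tor list (418), and its rank of 512 in replicate 2 stood apart from 61 and 93 in the others.

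Of the Dpp pathway, 3 of 17 genes held a member. Mad, its Smad transducer, had 403 with ranks of 118, 160 and 116. Dad, the inhibitory Smad, had 185 and ranked 193 in replicate 1 but 3313 and 2572 in the others. The last was shn. In JAK/STAT signalling 3 of 11 genes did: Socs36E, a negative regulator (98.2), Stat92E, the transcription factor (90.3), and Ptp61F, a phosphatase (90.8). In the Polycomb and Trithorax list 3 of 22 did, namely ph-p, Trl and fs(1)h, a BET-family chromatin protein (118). All 3 also had a promoter IDR peak. In lipid storage and synthesis 3 of 14 did: bmm, the main triglyceride lipase (302, ranks 260, 311 and 168), Lsd-2, a lipid droplet perilipin (256, ranks 346, 664 and 273), and SREBP, a lipogenic transcription factor (119, ranks 1233, 1433 and 4278).

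Among the bZIP and stress factors 2 of 18 genes held a member, CrebB, the fly CREB (116 and 103), and vri, a clock bZIP repressor (85.9). The JNK and AP-1 list had 2 of 16, kay, the fly Fos (113 and 86.2), and msn, a kinase upstream of JNK (106). The stronger kay member ranked 1824, 1937 and 1741, and the weaker ranked 1288 in replicate 1 with no call in the others. The Hippo list had 2 of 18, Diap1, the apoptosis inhibitor (191), and crb, the apical determinant (147), which was also the 1 of 21 in epithelial polarity. The actin and myosin list had 4 of 26, which were tsr, the fly cofilin (207), Moe, the fly moesin (158), Tm1, a tropomyosin (118), and Zasp66. The integrin and matrix list had 2 of 17, rhea, the fly talin (130), and LanA, a laminin chain (89.1). The muscle list had 3 of 15, rols (124), zfh1 (104) and kirre, with a pair of members (98.8 and 98.0). The neuronal list had 3 of 21, fra, the netrin receptor (173), NetB, a netrin (172), and elav, an RNA-binding protein of neurons (145). The Notch, Hox and immunity lists had 1 each, neur, an E3 ligase for Delta (196), lab (84.0) and PGRP-LB, a peptidoglycan-degrading regulator (94.0). In 8 lists no gene held a member: Wingless and Hedgehog, insulator proteins, segmentation, tracheal development, autophagy, glycolysis, ribosomal proteins, and the unfolded protein response. These lists held 12 to 21 genes each, with median lengths from 1412 bp (ribosomal proteins) to 12448 bp (Wingless and Hedgehog). Over all protein-coding genes 2.54% held a member, with 1.15% at 2167 to 4998 bp and 8.98% at 4999 bp or more. No list was tested, and 0 in so few genes is not read as an absence of binding.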

How the data were processed

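Chromatin immunoprecipitation with sequencing was deposited as peak lists for 3 biological replicates of 1 group. Per the labels, chromatin was sheared by sonication to 200 to 800 bp and a control was used. For dm6 there was a list for each replicate, a list from the pooled replicates and a list at an IDR threshold. Which aligner, peak caller and threshold were used is not given in the sources used here. Each peak's signal is a value the authors deposited, and it was taken as it stands. The −log10 q value, also deposited by the authors, was at its maximum in 82.0% of the IDR peaks and was not used. The lists carry no read totals, so depth is unknown and intervals cover counting error only. The IDR peaks were the 2896 pooled calls of highest signal. The dm3 lists were not used.

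Genes came from Ensembl release 115 without pseudogenes and transposable elements (17896 genes, 23722 TSSs) and sequence from the release 6 genome of RefSeq, which is dm6. Summits were classed by position. A replicate call was matched at an overlap of at least 50% of the shorter interval. Motifs were matched on either strand within 100 bp of the summit and in a window of the same length centred 600 bp away. The side was drawn once per peak, whatever the position class of the sequence there. The bZIP-type motifs were the palindrome TGACGTCA (CRE/ATF) and, inside it, the core TGACGT. Further bZIP types were TGANTCA for AP-1 dimers, TTGCNNAA for C/EBP proteins and TGATGCAA for composite dimers. Promoter types were TATCGATA (DRE), GGTCACAC (M1BP) and the TATA-type box TATAAA. Others were the repeat GAGAGA of the GAGA factor, then CAGGTAG, the site of the early activator Zelda, the palindromic E-box CACGTG and, as a type bound by Twist, CACATG. AACCGGTT (Grainyhead), the repeat CACACACA and the scrambled control CTGATCAG completed the set. Tests were the two-sided exact McNemar test, the two-sided Fisher exact test and the exact sign-flip permutation test over replicates, with Benjamini-Hochberg adjustment and a threshold of 0.05. P-values over peaks cover counting over peaks, not variation among embryos. Steps were tested on simulated data.

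Named genes were those at the 15 members of highest signal, those with 3 or more members, up to 3 per gene list by signal, members with the CRE palindrome (up to 8 by signal) and the members and peaks nearest the distance limits. Listed symbols that have changed were replaced by current ones. The members and lists were chosen with earlier results of these data known. Alternatives changed the distance limits, annotation, peak set, overlap, windows and replicates. The software was Python 3.11.15 with scipy 1.17.1, pandas 2.3.3, numpy 2.4.6 and matplotlib 3.10.9.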

Additional observations from a re-analysis of the deposited data

How the results depend on the processing

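No paired analysis was possible because the labels name 1 group. The class was 10.8% of IDR peaks with limits of 501 to 1500 bp and 17.9% with 501 to 3000 bp. With each replicate left out in turn, it was between 13.1% and 14.4% of the IDR peaks that were top calls in both others. The share of members found in the replicate lists was 91.3% at an overlap of at least 80% and 79.3% against the top calls alone. It was 97.4% to 99.0% with a replicate left out. For this share and the rank differences, leaving out a replicate means taking the mean over the others, with all members kept. The rank difference from promoter peaks was -0.123 percentile points without replicate 2 and 0.545 without replicate 1, so its sign rests on replicate 2. That from far intronic peaks was between -1.01 and -0.925 with a replicate left out, -1.004 with any overlap and -0.416 among the 1448 IDR peaks of highest signal.

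Motif counts moved as follows. Against flanks 2 motifs passed in a window of 200 bp to either side (TTGCNNAA, adjusted p = 0.0102, and GAGAGA, adjusted p = 0.0220, exact McNemar test). Against far intronic peaks 1 passed in a window of 50 bp to either side. Against promoter peaks 2 passed among the 1448 IDR peaks of highest signal, and from 1 to 3 with a replicate left out. In a window of 200 bp to either side 5 passed there, among them CACACACA (adjusted p = 0.00372, Fisher exact test, against 0.437 in the main window), higher in members. Genes holding a member numbered 229 to 248 with a replicate left out. For these sets the smaller number of peaks is part of the construction, and other causes were not tested. Of all other values recomputed, 48 were for the comparisons and 347 for single motifs. These gave the same call or a value within the set limit of change, which is a wide measure. For a motif the same call can mean that neither value passed. The CRE core share in members minus promoter peaks was 1.68 points, and -1.69 without replicate 1. Gene counts of 236 and 248 were within the limit, against 354. Alternatives without members nearest a non-coding TSS, without members missing from a replicate list and with 1 peak per overlapping group were chosen after seeing the data. Depth is unknown, 3 replicates cannot give a sign-flip p under 0.25, and 10 palindromes leave wide intervals.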
